A study of Schizosaccharomyces pombe with 6 samples.

Results

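The genes described here are the dubious protein-coding genes of fission yeast, *Schizosaccharomyces pombe*: predicted open reading frames for which the genome annotation itself marks the existence of a protein as doubtful. They were taken from the deposited table as the rows whose identifier does not begin with SPNCRNA and whose description holds the word dubious, which gave 47 genes. Leaving out the genes on the listed clones near the ends of chromosomes I and II removed SPAC11D3.20 and SPAC922.09, so that 45 genes remained of 6345 in all (5059 mRNAs and 1286 ncRNAs). The study sequenced polyadenylated RNA of 3 wild-type libraries (strain EHB7) and 3 *mkt1Δ* libraries (strain EHB2196), all from cells in exponential growth in YES, a rich medium, at 32°C, in order to find genes whose expression depends on Mkt1, a factor of post-transcriptional gene regulation. Both strains were h+ and carried ade6-210, leu1-32, ura4-D18 and the centromeric reporter otr1R(Sph1):ade6+, and in *mkt1Δ* cells the gene was replaced by the NatR marker.

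The values given below are the authors' mean over the libraries of both strains. This mean is a log2 CPM, that is, reads of a gene scaled to library size and put on a log2 scale, and is termed the mean level here. It carries no error and no number of replicates, the spread between libraries and the depth of each library are unknown, and it cannot be split by strain. The table also holds the authors' own comparison of the strains, which was not used, so nothing is said here about the effect of *mkt1* deletion on these genes. The table lists genes that had passed the study's filter on few reads, and how many dubious genes were removed by that filter is not known.

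A genome annotation begins with open reading frames, stretches of codons without a stop, and many short ones occur by chance. A reading frame is usually marked as dubious where it is short, has no relative in other species and lies across or opposite a better supported gene. RNA can still be read from such a place, because fission yeast transcribes much of its genome on both strands, and the transcript may belong to a neighbouring gene, to an antisense RNA or to an untranslated region rather than to the frame itself. A level measured on a dubious gene is therefore a level of RNA at that place and says nothing of a protein.

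Of the 45 dubious genes, 41 had a mean level under the median of the other mRNAs, and 4 lay above it. The median of their mean levels was 2.42, against 6.20 for the 5012 other mRNAs and 2.15 for the ncRNAs. Of the 45, 12 had a mean level under 0 (under 1 CPM), 10 lay between 0 and 2, 14 between 2 and 4, 5 between 4 and 6, and 4 above 6. The whole range ran from -2.42 for SPBC887.16 to 7.57 for SPBP8B7.32. The 4 highest held 67.2% of the 859 CPM that the dubious genes took together. On the same scale *act1*, which encodes actin, had a mean level of 11.85, the cell cycle kinase gene *cdc2* had 6.68, and *mkt1* itself, deleted in one of the strains averaged, had 6.83.

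**Figure D1:**
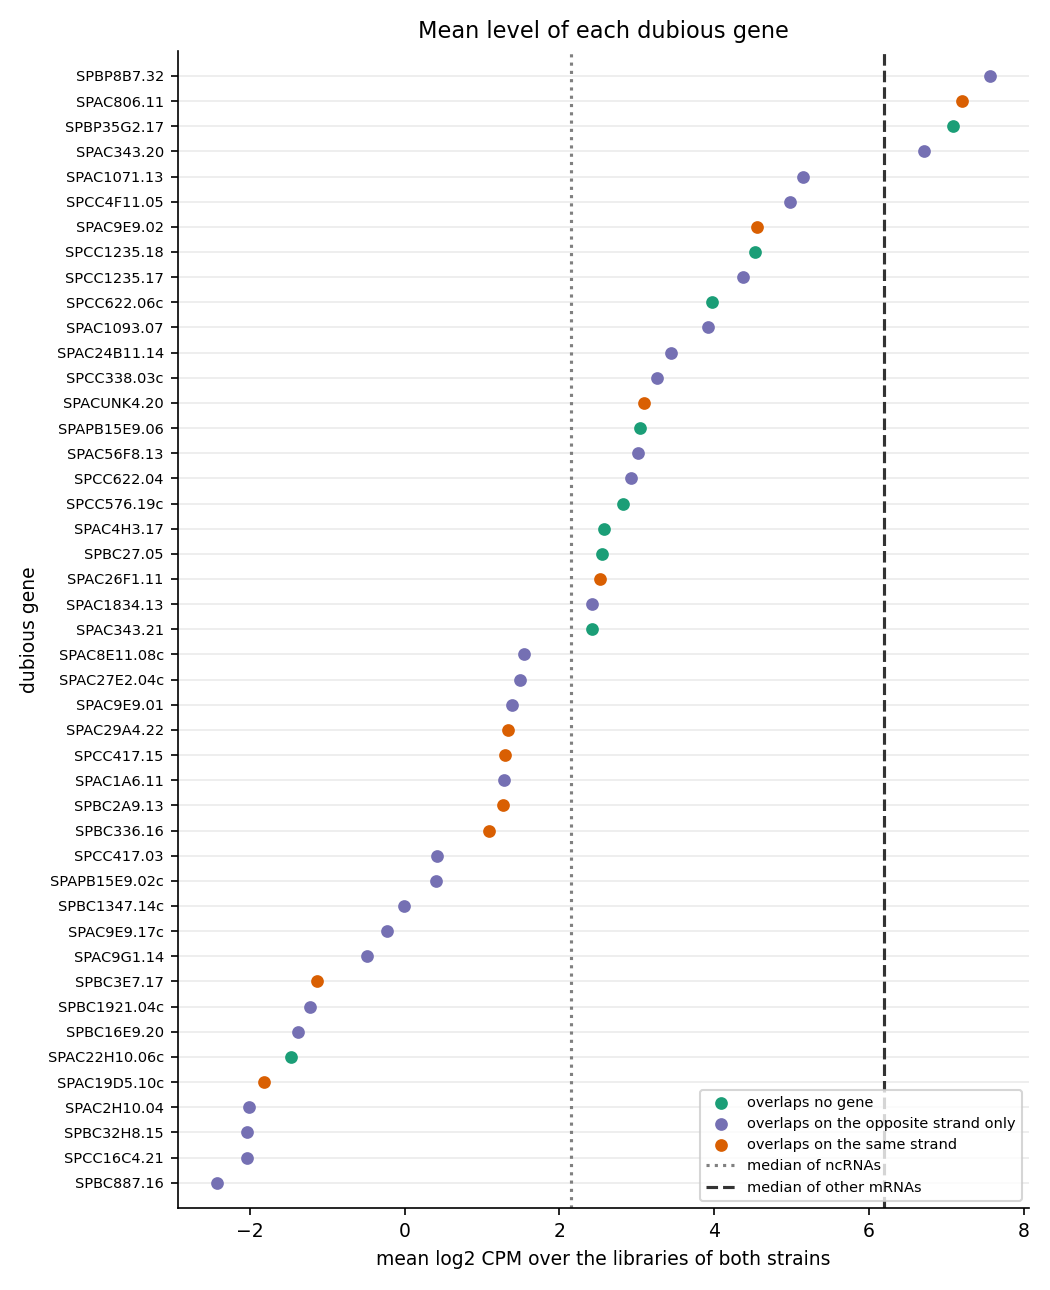
Each point is the authors' mean log2 CPM of 1 of the 45 dubious genes over the libraries of both strains, coloured by whether the gene shares bases with another gene in the ASM294v3 annotation; the lines mark the medians of ncRNAs (2.15) and of other mRNAs (6.20). The 4 highest genes lie to the right of the mRNA median, and 23 of the 45 lie to the right of the ncRNA median.

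The 4 genes above the mRNA median were SPBP8B7.32 (7.57), SPAC806.11 (7.20), SPBP35G2.17 (7.08) and SPAC343.20 (6.72), and each of them lay above *cdc2*. They have little in common in their structure. In the ASM294v3 annotation SPBP8B7.32 is a gene of 3737 bases with a reading frame of 225 bases, whereas SPAC806.11 is 219 bases long and consists of its reading frame alone. SPBP35G2.17 overlaps no annotated gene, and SPAC343.20 lies opposite *rds1* over 85.2% of its length. The next highest were SPAC1071.13 (5.15), SPCC4F11.05 (4.98), SPAC9E9.02 (4.55) and SPCC1235.18 (4.53), which together with SPCC1235.17 (4.37) lay below the median of other mRNAs and above all the remaining dubious genes.

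At the lower end were SPBC887.16 (-2.42), SPCC16C4.21 (-2.04), SPBC32H8.15 (-2.04), SPAC2H10.04 (-2.01), SPAC19D5.10c (-1.82), SPAC22H10.06c (-1.47), SPBC16E9.20 (-1.38) and SPBC1921.04c (-1.22). All 8 were under 0.5 CPM, and the lowest value of any gene in the table was -2.47. At such levels the small prior count that edgeR adds before it takes logarithms makes up part of the value, so differences among these genes cannot be read as differences in RNA. The other genes under 0 were SPBC3E7.17 (-1.13), SPAC9G1.14 (-0.48), SPAC9E9.17c (-0.23) and SPBC1347.14c (-0.0050).

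Set against the spread of other mRNAs, 27 of the 45 dubious genes lay under the fifth percentile (2.77), and 41 lay under the median. A mean level under 2 was found for 22 of the 45 (48.9%), for 182 of the 5012 other mRNAs (3.63%) and for 610 of the 1286 ncRNAs (47.4%). These shares are descriptions, since genes are not replicates and the means carry no error. Proteins described as specific to *Schizosaccharomyces* also have short reading frames (a median of 492 bases), and they were intermediate, with a median of 4.74 over 256 genes and 41 of them (16.0%) under 2. Among the ncRNAs, the 667 antisense RNAs had a median of 2.56, the 404 intergenic RNAs one of 2.29, and the 207 whose description begins with non-coding RNA one of -0.31. By this measure the dubious genes lay near the antisense and intergenic RNAs.

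Because a longer gene collects more reads at the same abundance, the means were also divided by gene length. Per kb of gene, the median of the dubious genes was 5.83 CPM, against 38.0 CPM per kb for the other mRNAs and 3.87 CPM per kb for the ncRNAs. The dubious genes ranged from 0.370 CPM per kb (SPBC16E9.20) to 671 CPM per kb (SPAC806.11), and 29 of the 45 were above the ncRNA median while 6 were above that of other mRNAs. Both ends are uncertain. SPBC16E9.20, of 1037 bases, is among the genes under 0.5 CPM, where the prior count makes up part of the value. SPAC806.11 lies wholly inside *prl3*, an ncRNA gene on the same strand. The 5 highest per kb were SPAC806.11, SPBP35G2.17 (323), SPCC4F11.05 (110), SPAC1071.13 (75.7) and SPAC343.20 (52.3), and the other one above the mRNA median was SPBP8B7.32 (50.8). *cdc2* had 54.3 CPM per kb and *act1* had 2002. Length changes the order among the highest genes: SPBP8B7.32 had rank 1 in CPM and rank 6 per kb, and SPCC4F11.05, a gene of 288 bases, rose from rank 6 to rank 3.

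**Figure D2:**
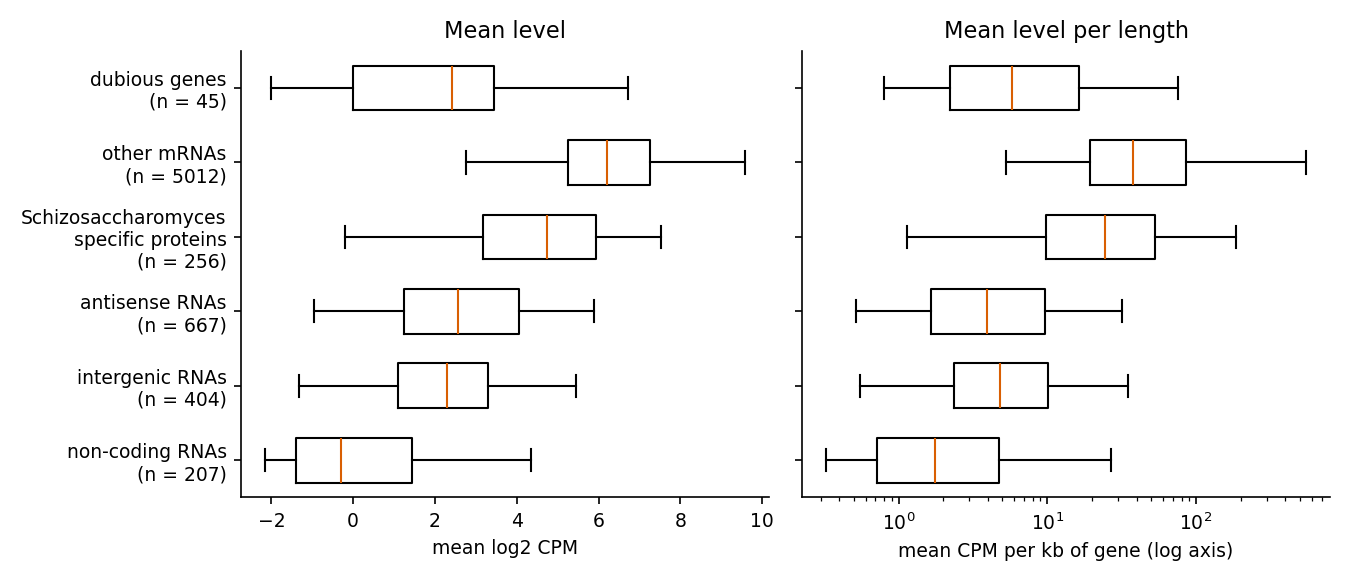
Boxes show the quartiles and median (orange) and whiskers the fifth and 95th percentiles of the authors' mean log2 CPM (left) and of the mean CPM per kb of gene on a log axis (right), for the dubious genes and other classes of the table. The dubious genes have medians of 2.42 and 5.83 CPM per kb, near those of antisense RNAs (2.56 and 3.94) and intergenic RNAs (2.29 and 4.82) and below those of other mRNAs (6.20 and 38.0).

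The dubious genes are short. All 45 are still listed as protein coding in ASM294v3, 44 of them as an uncharacterized protein. Their gene lengths ran from 183 to 3737 bases with a median of 579, against a median of 1794 for the other mRNAs. Their reading frames ran from 132 to 570 bases (43 to 189 residues) with a median of 306 bases, against 1152 bases for the other mRNAs. A reading frame in 1 piece was annotated for 38 of the 45 (84.4%) and for 52.5% of the other mRNAs. The most coding exons were in SPAC9E9.17c, with 4 for 72 residues, and in SPAC24B11.14, with 3.

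The 6 longest reading frames belong to SPBC16E9.20 (189 residues), SPAPB15E9.02c (188), SPAC27E2.04c (187), SPAC24B11.14 (166), SPCC1235.18 (159) and SPAC343.21 (158). Their mean levels of -1.38, 0.41, 1.49, 3.45, 4.53 and 2.42 span much of the range of the dubious genes. SPAC27E2.04c is the only one of the 45 with a standard name, *mug155*, from a family of names given to genes upregulated in meiosis, whereas 84.6% of the other mRNAs have such a name. The shortest frame, 43 residues, is that of SPCC417.15, with a mean level of 1.29. Across the 45 genes the mean level and the log2 of coding length gave a Spearman rank correlation of 0.07 and a Pearson correlation of 0.04. With gene length these were 0.46 (Spearman) and 0.47 (Pearson) for the mean level, which is not divided by length, and 0.14 (Spearman) and 0.10 (Pearson) for the log2 of CPM per kb.

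For 12 of the 45 (26.7%) the annotated gene is the reading frame alone, with no untranslated region, which is so for 1.46% of the other mRNAs. Their median was -0.57 (from -2.42 to 7.20), and 8 of the 12 were under 2. The 33 dubious genes that reach beyond their frame had a median of 2.53 (from -1.82 to 7.57), and 14 of them were under 2. The ranges overlap. The 12 include 5 of the 8 lowest dubious genes, and also SPAC806.11, the second highest. Among the other mRNAs the 73 genes without untranslated regions likewise had the lower median, 2.97 against 6.23. These levels are not divided by length, and in both classes the genes without untranslated regions had the shorter median length. Per kb of gene they still had the lower median. It was 2.61 against 7.14 CPM for the dubious genes and 11.3 against 38.2 CPM for the other mRNAs. A cause of this order was not tested.

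**Figure D3:**
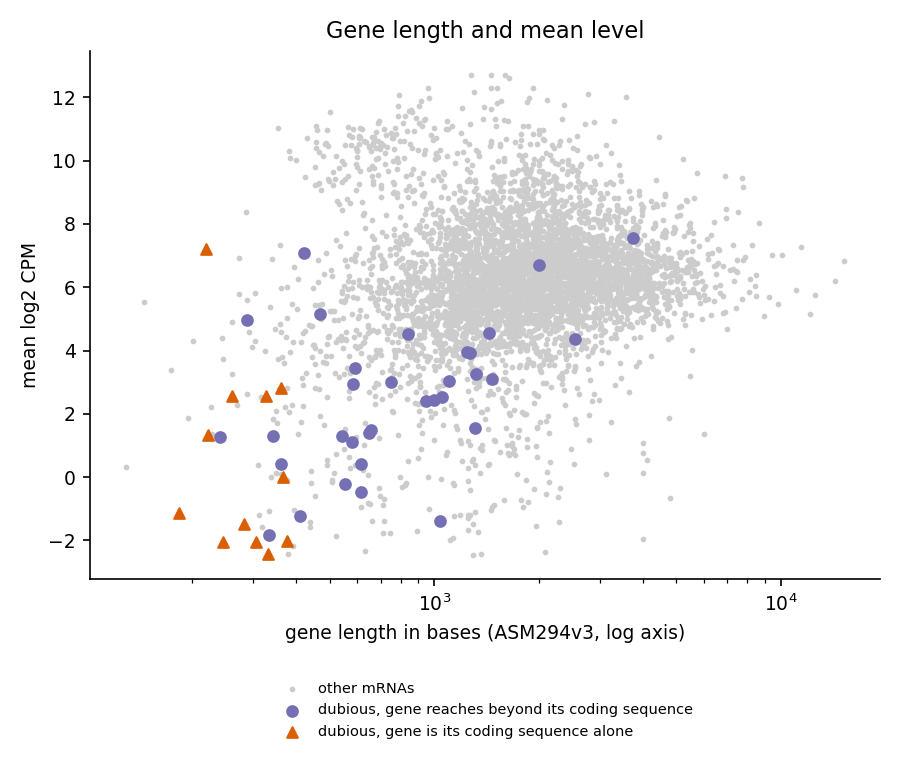
The authors' mean log2 CPM is plotted against gene length in bases (log axis) for the 45 dubious genes, split by whether the annotated gene is its coding sequence alone, and for the other mRNAs in grey. The 12 genes that are their coding sequence alone are under 400 bases long, and 8 of them lie under a mean level of 2.

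Of the 45 dubious genes, 36 (80.0%) share at least 1 base with another gene of ASM294v3, in 50 pairs of which 39 are on the opposite strand and 11 on the same strand. Of the other mRNAs 91.5% overlap a gene of this annotation, which holds many long ncRNAs. The order of the shares turns with the overlap that counts: 53.3% of dubious genes and 45.9% of other mRNAs had at least 50% of their length covered by 1 gene, and 64.4% and 57.0% overlapped a gene with a row in the table. Lying wholly inside another gene was found for 15 dubious genes (33.3%) and for 10.7% of the other mRNAs, and a dubious gene is shorter than most mRNAs. In 13 of these cases the surrounding gene is on the opposite strand, and in 3 on the same strand, SPBC2A9.13 having both. Protein-coding genes overlap 16 dubious genes and long ncRNA genes overlap 28.

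The strand setting of the authors' counting is not given in the sources used here, and the libraries were stranded. HTSeq in its union mode assigns no read that falls on 2 genes. Without strand, a gene wholly inside the counted parts of another would therefore receive none. The overlaps given here are of whole genes, introns included, so they do not show which parts were counted. In the ASM294v3 annotation 10 dubious genes lie wholly inside an opposite-strand gene that has its own row in the table. All 10 have a value, but so does every dubious gene here, because they were taken from the rows of the table. SPAC806.11 and SPBC2A9.13 lie wholly inside a same-strand gene of the table and have 147 and 2.42 CPM. If the counted parts overlapped as the whole genes do, union mode would assign them no read under either setting. A value therefore does not tell the settings apart. The authors counted on ASM294v2.30, in which gene ends may differ, and reads of overlapping genes remain uncertain for this reason.

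Where the gene of the table that covers most of the dubious gene was a protein-coding gene on the opposite strand, the dubious gene had the lower CPM per kb in 10 of 12 cases. Of all 45 dubious genes, with or without an overlap, 6 were above the median of other mRNAs in CPM per kb. A lower value is thus usual for these genes, and an effect of overlap was not tested. SPAC29A4.22 (11.4 CPM per kb) lies wholly inside *rga3* (14.9). SPBC1347.14c (2.72) lies wholly inside *sro1* (41.4), a stress-responsive gene, and SPAC56F8.13 (10.8) wholly inside *mug115* (26.7), whose name again marks upregulation in meiosis. SPBC2A9.13 (10.0) is wholly opposite SPBC2A9.14 (59.4), which encodes a protein specific to *S. pombe*. In each of these cases the opposite-strand coding gene had the higher value per kb, by 1.31 times in *rga3* and 15.2 times in *sro1*. SPBC2A9.13 also lies wholly inside SPNCRNA.1567 on the same strand, which had the lower value (8.02).

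Partial overlaps with coding genes gave a wide range of ratios. SPAC343.20 had 52.3 CPM per kb opposite *rds1* at 198. SPAC9G1.14 had 1.17 CPM per kb opposite *wis4* at 31.5, the gene of a MAP kinase kinase kinase of the stress pathway. SPACUNK4.20 had 5.83 CPM per kb opposite *gor1*, which encodes glyoxylate reductase, at 149 (25.5 times). SPCC16C4.21 (0.987) shares 24 bases with *pus3* (11.8), a tRNA pseudouridine synthase gene. It is among the genes under 0.5 CPM, where the prior count makes up part of the value. The highest dubious gene by mean level, SPBP8B7.32 (50.8), shares 612 bases with *pop7* (59.3), a subunit gene of RNase P and RNase MRP, a ratio of 1.17. *mug155* (SPAC27E2.04c) had 4.27 CPM per kb, and SPAC27E2.12, which covers 51.2% of it, had 6.29.

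One exception among the coding partners was SPCC338.03c, at 7.27 CPM per kb, with *mug112* opposite it at 0.493, so that here the dubious gene had the higher value. *mug112* has a mean level of -2.42, as low as any dubious gene, and at such levels the prior count makes up part of the value. The other pair of this kind was made of 2 dubious genes: SPAC9E9.01 (4.02 CPM per kb) lies wholly inside SPAC9E9.02 (16.3) on the opposite strand.

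Against antisense and other non-coding RNAs the order went either way. SPCC417.03 (3.68 CPM per kb) lies wholly inside SPNCRNA.1215 (16.1), SPAPB15E9.02c (2.16) inside SPNCRNA.954 (12.1), SPAC1834.13 (5.38) inside SPNCRNA.1018 (29.3) and SPAC1093.07 (12.0) inside SPNCRNA.1004 (15.5). In these cases the annotated antisense RNA had the higher value. SPCC4F11.05 (110) had the opposite order with SPNCRNA.585 (9.73), as did SPAC24B11.14 (18.4) with SPNCRNA.624 (7.50), SPCC622.04 (13.1) with SPNCRNA.1193 (3.06) and SPAC9E9.17c (1.55) with SPNCRNA.987 (0.705). SPBP8B7.32 (50.8) was also above SPNCRNA.1626 (35.0), the antisense RNA that covers 20.3% of it. At the lowest levels SPBC887.16 (0.564) and SPBC16E9.20 (0.370) were below SPNCRNA.1617 (1.20) and SPNCRNA.1480 (3.64), and SPAC8E11.08c (2.23) was below SPNCRNA.903 (4.07).

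Over the 29 dubious genes with an overlapping gene in the table, the partner that covers most of the dubious gene had the higher CPM per kb in 20 cases and the lower in 9. It was higher in 12 of 14 coding partners and in 8 of 15 ncRNA partners (SPAC9E9.01 and SPAC9E9.02 are each other's partner and count on both sides), and the median ratio of partner to dubious gene was 2.47. Of all 45 dubious genes, 6 were above the median of other mRNAs per kb and 29 above that of ncRNAs. SPBC2A9.13 is wholly covered by 2 genes. It was counted with SPBC2A9.14 (higher), whose identifier comes first, and not with SPNCRNA.1567 (8.02 CPM per kb, lower). The levels per kb of the 2 genes of a pair were loosely related, with a Pearson correlation of 0.40 and a Spearman rank correlation of 0.26 over the 29 pairs on the log2 scale. Over the 24 pairs on the opposite strand these were 0.34 (Pearson) and 0.24 (Spearman). In 7 further dubious genes the overlapping genes had no row in the table: SPAC1071.13, SPAC1A6.11, SPAC2H10.04, SPBC1921.04c, SPBC32H8.15, SPBC3E7.17 and SPCC1235.17. For SPBC1921.04c this is the small nucleolar RNA gene *sno20*, and for the others it is a long ncRNA, as for SPAC1A6.11 (1.29), which lies wholly inside one.

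**Figure D4:**
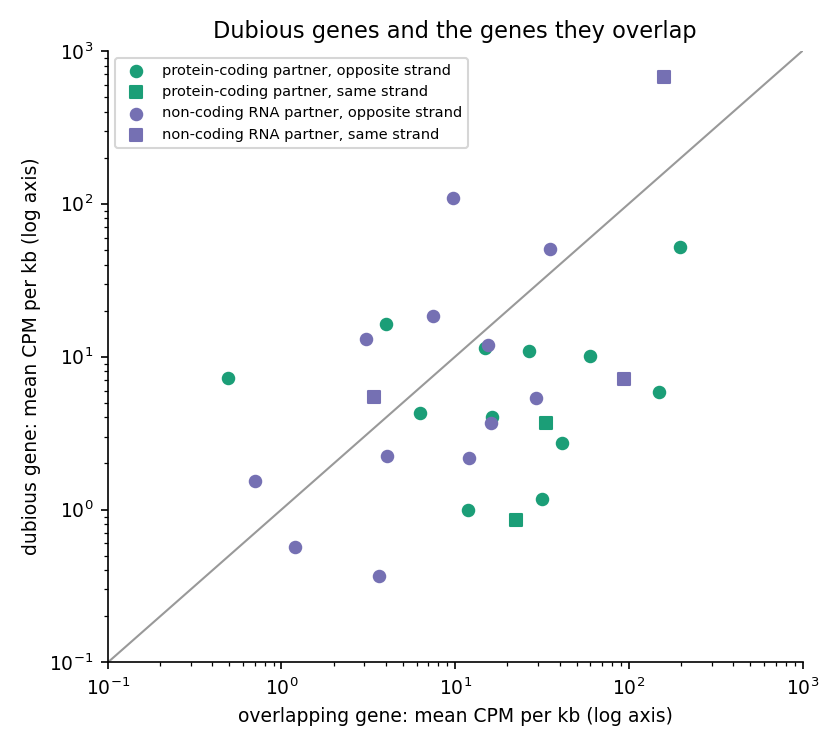
For the 29 dubious genes that overlap a gene with a row in the table, the mean CPM per kb of the dubious gene is plotted against that of the gene covering most of it (both log axes), with colour for the kind of partner and shape for its strand. On the grey line both are equal; 20 points lie below it, where the partner is the higher, and 9 lie above it.

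Overlap on the same strand was found for 10 dubious genes (22.2%, against 10.4% of the other mRNAs). Reads in the shared bases cannot be told apart even with stranded counting, and the shared part runs from 1.77% of the dubious gene to all of it. SPAC806.11 lies wholly inside *prl3* (SPNCRNA.03), a poly(A)-bearing non-coding RNA, and had a mean level of 7.20 against 6.96 for *prl3*. Divided by length, SPAC806.11 had 671 CPM per kb and *prl3* had 160. SPCC417.15 lies inside *prl32* (SPNCRNA.32) over 98.5% of its length and reaches into SPCC417.16, a gene for a cytochrome c oxidase subunit, with mean levels of 1.29, 5.33 and 7.61. SPBC2A9.13 (1.27) lies wholly inside SPNCRNA.1567 (4.06), and SPBC3E7.17 (-1.13) inside an ncRNA gene without a row. The order of SPBC2A9.13 and SPNCRNA.1567 turned when divided by length, with 10.0 against 8.02 CPM per kb. SPCC417.15 stayed the lowest of its group, with 7.14 CPM per kb against 93.7 for *prl32* and 270 for SPCC417.16.

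The other same-strand overlaps are partial. SPAC29A4.22 (1.34) shares 44.1% of its length with *mug108* (7.77), and SPAC19D5.10c (-1.82) shares 32.4% with *din1* (4.84), whose protein binds the exoribonuclease Dhp1. SPBC336.16 (1.10) shares 5.35% with SPBC18A7.02c, and SPAC9E9.02 shares 2.51% with *sfp1*, a predicted transcription factor gene. SPAC26F1.11 (2.53) and SPACUNK4.20 (3.10) share under 2% with an ncRNA. The 10 genes had a median of 1.31 with a range from -1.82 to 7.20, against 1.44 (from -2.42 to 7.57) for the 26 that overlap on the opposite strand only, so the ranges overlap almost wholly.

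The 9 dubious genes that overlap no gene of ASM294v3 had a median of 2.82 (from -1.47 to 7.08), and 1 of the 9, SPAC22H10.06c, was under 2. Per kb their median was 17.9 CPM, against 4.14 for opposite-strand overlaps and 6.49 for same-strand overlaps. In these 2 overlap groups 15 of 26 and 6 of 10 dubious genes were under 2. Among the other mRNAs the medians were 55.4 CPM per kb without overlap, 37.1 with opposite-strand overlaps only and 38.4 with same-strand overlaps. The medians of their mean levels were 6.14, 6.22 and 6.18 in the same order. An effect of overlap was not tested. SPBP35G2.17 (7.08) lies between the intergenic RNA SPNCRNA.1400 (1.16) and *txc1* (6.77). SPBC27.05 (2.55) lies between *uds1* (6.36), a septation protein gene, and *mgr2* (6.79), a gene of the mitochondrial import machinery. SPAC22H10.06c (-1.47) lies beside *zym1* (7.31), the metallothionein gene. The other 6 were SPCC1235.18 (4.53), SPCC622.06c (3.97), SPAPB15E9.06 (3.05), SPCC576.19c (2.82), SPAC4H3.17 (2.57) and SPAC343.21 (2.42).

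Several dubious genes lie next to each other in the order of the table's genes along the chromosome. SPCC1235.17 and SPCC1235.18 lie between the hexose transporter genes *ght6* (0.62) and *ght5* (10.97). They had nearly equal mean levels of 4.37 and 4.53, but 8.14 and 27.4 CPM per kb. SPAC9E9.02, SPAC9E9.01 and SPAC9E9.17c come in this order with mean levels of 4.55, 1.38 and -0.23, and SPAC9E9.01 lies wholly inside SPAC9E9.02 on the opposite strand. SPAPB15E9.02c and SPAPB15E9.06 had 0.41 and 3.05. Neighbouring dubious genes were thus of like level in 1 of these places and differed in the others by up to 3.17 on the log2 scale (SPAC9E9.01 against SPAC9E9.02).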

How the data were processed

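RNA was sequenced from 3 wild-type and 3 *mkt1Δ* libraries, grouped by their titles. According to the methods and the submitters' processing notes, trimming was by cutadapt 1.8.3, alignment by STAR 2.5 on ASM294v2.30, counting by HTSeq 0.6.1 (union mode), and edgeR 3.12.0 followed after genes with fewer than 20 reads were discarded. The unit used is the authors' deposited log2 CPM, 1 mean per gene over all libraries. Their 3 columns of the comparison (fold change, p-value, adjusted p-value) were not used, and a test of the strains, designed for values per library, was not made.

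Names, lengths, strands and overlaps came from RefSeq's ASM294v3, another build, so no coordinate or sequence is given; 6299 of 6345 identifiers matched, upper and lower case taken alike, 45 of the 45 dubious genes among them. Mean CPM per kb is 2 to the power of the mean log2 CPM over gene length, introns included. The overlap code was tested on simulated data. Medians and shares are descriptions without tests. Correlations are across genes, which are not independent replicates.

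Named genes were to be the 8 highest and 8 lowest, the 5 highest per kb, those with a standard name, the 6 with the longest coding sequence and their overlapping or neighbouring genes; the rest were named with their values already seen, to account for each. The members and lists were chosen with earlier results of these data known. Descriptions holding the word pseudogene were looked for and 0 rows had it. Alternatives changed the set of genes, the length, the limit on low levels and the overlap that counts. Tools were Python 3.11.15, pandas 2.3.3, numpy 2.4.6, scipy 1.17.1 and matplotlib 3.10.9.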

Additional observations from a re-analysis of the deposited data

How the results depend on the processing

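Adding the 2 dubious genes on the listed clones moved the median level of the dubious genes to 2.22, and the other sets of genes tried left it at 2.42. Per kb of coding sequence in place of gene length, the medians were 17.9 CPM for dubious genes and 61.6 CPM for other mRNAs, so the dubious genes stayed the lower. With the limit on low levels at 1, 31.1% of dubious genes and 30.02% of ncRNAs were under it, and with the limit at 3, 5.59% of other mRNAs were. With protein-coding partners alone 35.6% of dubious genes and 43.0% of other mRNAs overlapped a gene, the same order as with any partner (80.0% against 91.5%). This order turned where 1 gene had to cover 50% (53.3% against 45.9%) and with partners in the table (64.4% against 57.0%). The setting with partners in the table, and the sets without same-strand overlaps or without genes that are their coding sequence alone, were chosen after seeing the data. A value was taken as moved where it changed by over 1.5 times, since no spread between replicates is known. No paired analysis was possible because each gene has only its mean over all libraries; for the same reason leaving out libraries, other normalizations and other filters were not run. Depth, and so the counting error of the low levels, is unknown.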

Other observations

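The 2 dubious genes on the listed clones had mean levels of -0.40 (SPAC11D3.20) and 2.22 (SPAC922.09), inside the range of the other 45. By the start of the identifier, 24 of the 45 begin with SPA, 11 with SPB and 10 with SPC, which stand for clones of chromosomes I, II and III, and their medians were 2.42, -0.0050 and 3.10. Of the other mRNAs 45.5%, 36.5% and 18.0% begin with these letters, with medians of 6.23, 6.26 and 6.08. Per kb of gene the medians were 5.55, 2.72 and 10.4 CPM for the dubious genes and 38.4, 38.8 and 34.4 CPM for the other mRNAs. The highest level among the 10 dubious genes that begin with SPC was 4.98, so the 4 dubious genes above the mRNA median all begin with SPA or SPB. With so few genes a group these values are given without a test.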
